A study of Mus musculus with 15 samples.

Results

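Cwc22 is a protein of the spliceosome, the machine that removes introns from pre-mRNA. It was followed here in the lungs of mice fed permethrin, a pyrethroid insecticide. Its members were all the non-control probes of the array whose RefSeq identifier belongs to Cwc22, and there were 3 of them among 56605 non-control probes. The gene was selected on its measured log2 difference between 500 ppm and control. For the Cwc22 probes that comparison is therefore given below as a description, with no p-value of their own.

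The mice were Crlj:CD1(ICR) females, an outbred stock. They were 9 weeks old at purchase and 11 weeks old at sampling, and had 3 biological replicates on each of 5 diets. The powdered diet held 0 ppm permethrin (the control), 20 ppm, 500 ppm, 2500 ppm or 5000 ppm for 7 days, and total RNA of the whole lung was labelled with Cy3 and hybridised to 1 Agilent array per mouse. In RNA of a whole organ, fewer cells of a type and less RNA per cell cannot be told apart. The labels do not say which animals were litter mates, and each mouse gave 1 array, so p-values measure the spread between mice as hybridised.

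CWC22 escorts the helicase EIF4A3 to the spliceosome. There EIF4A3 becomes the RNA clamp of the exon junction complex, a set of proteins left on mRNA upstream of each splice junction that later acts in export, localisation and nonsense-mediated decay. The protein carries a MIF4G domain, a fold shared with translation factors of the eIF4G family. In the mouse the gene lies on chromosome 2, in a segment whose copy number differs between mice. Copy number was not measured in these animals.

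The arrays gave signal well above background at 72.0% to 87.6% of probe spots. All 5 lung markers (Sftpc, Sftpb, Scgb1a1, Ager and Foxj1) were well above background on all 15 arrays. Of 8 markers of other tissues, Umod of kidney was above background on 0 of 15 arrays, and the other 7, Ins2 of pancreas and Gfap of glia among them, were well above background on all 15. Ins2 ranged from -5.23 to -2.73 and Gfap from -3.54 to -2.41. Liver Alb ranged from -0.48 to 4.83, and heart muscle Myh6 from -0.40 to 5.77 and Myl7 from -0.52 to 5.82, so these differed widely between mice. Alas2 and the brighter probe of Hba-a1, both of the red cell line, ranged from 3.84 to 5.62 and from 8.98 to 9.99. The correlations of Alb, Myh6 and Myl7 with the brightest Cwc22 probe over the 15 arrays were 0.294, 0.0083 and -0.117, and their part in the result was not tested. All controls, all 20 ppm mice and 2 of the 500 ppm mice shared slide 1. Slide 2 carried the remaining 500 ppm mouse and every mouse of the 2500 and 5000 ppm diets. 500 ppm mouse 3 and 2500 ppm mouse 3 stood apart from the other arrays on the first principal component (34.61% of the variance), and control mouse 1 and 20 ppm mouse 1 on the second (22.32%). The extraction software gave 500 ppm mouse 3 and 2500 ppm mouse 3 a status of 1, and every other array 0. The array of 500 ppm mouse 3 also had the largest SD of negative control spots (3.126) and the 87.6% above. The part of these in the result was not tested.

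By diet means, Cwc22 signal split the diets into a high pair and a low trio. It was high on the control and 20 ppm diets and low at 500, 2500 and 5000 ppm. The means of the 3 higher diets did not follow the dose. Single mice split less cleanly. On the dimmest of the 3 probes the groups overlapped. On the brightest, 5000 ppm mouse 3 (1.13) stood nearer the lowest control (1.47) than the rest of its group (-0.57 and -0.54). On the brightest probe the means fell from 2.03 ± 0.55 on the control diet (SD, n = 3) to -0.79 ± 0.16 at 2500 ppm (SD, n = 3), a level 7.05-fold lower. The difference from control did not pass limma's test across all probes at 2500 ppm (adjusted p = 0.133) or at 5000 ppm (adjusted p = 0.374).

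A level here is the log2 of the scanner's processed signal minus the 75th percentile of that array, so 0 is the 75th percentile of all probes and 1 unit is a doubling. Levels of different probes are not compared with each other, since each probe has its own response. The probes A_55_P1997429 and A_51_P327642 are listed under NM_030560, and A_55_P1997424 under NM_001362664, which are among 11 RefSeq transcripts of the gene. All 3 probes were well above background on 15 of 15 arrays, and none was saturated.

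On probe A_55_P1997429 the control mice stood at 2.57, 2.05 and 1.47. The 20 ppm mice stood at 3.46, 1.96 and 2.92, overlapping the controls. At 500 ppm the levels were -0.69, -0.69 and -0.43, below every control and 20 ppm mouse.

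The 2500 ppm mice read -0.83, -0.92 and -0.61 on the same probe, overlapping the 500 ppm mice. At 5000 ppm the levels were -0.57, -0.54 and 1.13. Mouse 3 at 5000 ppm was therefore above the other 8 mice of the 3 higher diets, and still below the lowest control. All 9 mice at 500 ppm and more lay below all 6 mice on the control and 20 ppm diets. The share of all probes that separate 9 mice from 6 in this way is not given. The control and 500 ppm mice also chose the gene, so this is a description only. The SD within a diet was 0.15 at 500 ppm and 0.16 at 2500 ppm, against 0.55 on control, 0.76 at 20 ppm and 0.97 at 5000 ppm (n = 3 each).

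The second probe of the same transcript, A_51_P327642, gave 0.77, -0.12 and -0.12 on control and 1.78, 0.38 and 1.36 at 20 ppm. It gave -1.70, -1.75 and -0.94 at 500 ppm, -1.80, -1.74 and -1.64 at 2500 ppm and -1.73, -1.68 and -0.77 at 5000 ppm. Here too the 9 mice of the 3 higher diets were below the other 6, and 5000 ppm mouse 3 was the highest of the 9. This separation is likewise a description only.

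The dimmest probe, A_55_P1997424, separated the diets less. Its processed signal ran from 19.2 in 500 ppm mouse 2 to 229 in 20 ppm mouse 1. The part of dim signal in its weaker separation was not tested. Its control levels were -2.43, -2.17 and -3.31, and its 20 ppm levels -1.29, -3.13 and -1.72. At 500 ppm it read -3.91, -4.37 and -2.53, at 2500 ppm -3.72, -3.94 and -3.58, and at 5000 ppm -3.31, -3.96 and -2.94. The groups overlapped, with 500 ppm mouse 3 and 5000 ppm mouse 3 above control mouse 3, while the 2500 ppm mice were below all 3 controls.

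**Figure D1:**
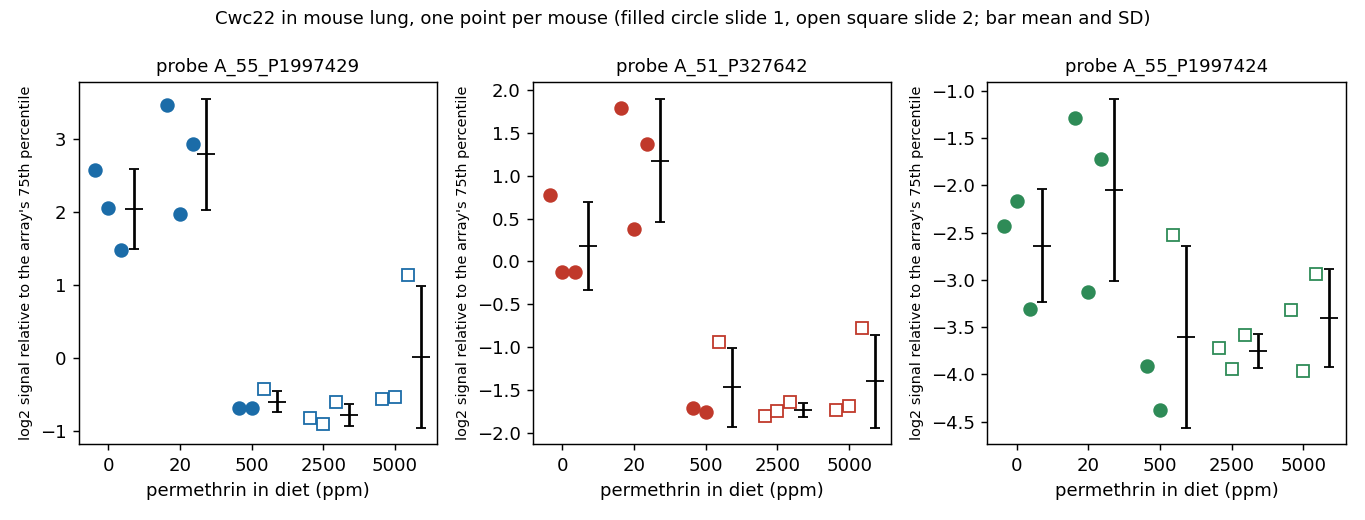
Level of each Cwc22 probe (log2 processed signal relative to the array's 75th percentile) in each of 15 mice, by permethrin in the diet in ppm; filled circles are slide 1, open squares slide 2, and the bar beside each group is the mean and SD of 3 mice. On the left and middle probes the control and 20 ppm mice sit above all mice of the 3 higher diets, and the 5000 ppm mouse at 1.13 on the left probe stands above the rest of its group.

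Ordered by mean level on A_55_P1997429, the diets ran 20 ppm (2.78), control (2.03), 5000 ppm (0.01), 500 ppm (-0.60) and 2500 ppm (-0.79). The first pair of neighbours overlapped, as did 500 and 2500 ppm, and the 5000 ppm mice overlapped the 500 ppm mice. The gap in that order lay between control and 5000 ppm.

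The comparison that chose the gene, 500 ppm against control, gave a log2 difference of -2.63 ± 0.46 (SE) on A_55_P1997429, a 6.21-fold lower level. It gave -1.64 ± 0.39 on A_51_P327642 and -0.96 ± 0.53 on A_55_P1997424, with a range on the last from -1.50 without 500 ppm mouse 3 to -0.58 without 500 ppm mouse 2. Of 43154 probes kept, 10 had a larger fall than A_55_P1997429 there and 38 a larger one than A_51_P327642. High ranks here follow from the choice of the gene, so they are a description only. The median of all probes in this comparison was 0.11, and limma called 0% of all probes there at an adjusted p of 0.05 (1174 had an unadjusted p under 0.05). Within slide 1, which held 2 of the 500 ppm mice, the same difference on A_55_P1997429 was -2.72, also a value of the comparison that chose the gene.

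The 20 ppm, 2500 ppm and 5000 ppm diets were each set against the same 3 control mice that entered the choice of the gene. At 20 ppm the differences were 0.75 ± 0.46, 0.997 ± 0.39 and 0.59 ± 0.53 on A_55_P1997429, A_51_P327642 and A_55_P1997424. None passed limma's test (adjusted p = 1 for each), which called 0% of all probes (602 at an unadjusted p under 0.05).

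At 2500 ppm the differences from control were -2.82 ± 0.46, -1.90 ± 0.39 and -1.11 ± 0.53, in the same order of probes. limma called none of them (adjusted p = 0.133, 0.175 and 0.664), and 0% of all probes (3357 at an unadjusted p under 0.05). The value 0.133 was also the smallest adjusted p of any probe in that comparison. Only 6 probes had a larger fall than A_55_P1997429. That rank uses the control mice that entered the choice of the gene, so it is a description only.

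At 5000 ppm the differences were -2.02 ± 0.46, -1.57 ± 0.39 and -0.77 ± 0.53, and limma called none of them (adjusted p = 0.374, 0.521 and 0.979). It called 0.0324% of all probes in that comparison, 0.0301% as higher and 0.00232% as lower. Without 5000 ppm mouse 3 the difference on A_55_P1997429 was -2.58 (adjusted p = 0.0874).

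The means compared among the 20, 2500 and 5000 ppm diets come from none of the mice that chose the gene, and these comparisons were added after the data were seen. The estimate of spread behind their SE and adjusted p comes from all 15 mice, the control and 500 ppm mice included. Against 20 ppm, A_55_P1997429 was lower by a log2 difference of -3.57 ± 0.46 at 2500 ppm (11.9-fold) and by -2.77 ± 0.46 at 5000 ppm (6.83-fold). In both, every mouse of the higher diet was below every 20 ppm mouse. The share of all probes that separate 3 mice from 3 in this way is not given, so this is a description only. The adjusted p of limma was 0.0677 and 0.0816. These missed the threshold of 0.05. Both passed without 5000 ppm mouse 3 (differences of -3.57 and -3.33, adjusted p = 0.00801 and 0.0128). Those fits called 8 and 14 of all 43154 probes. In the 2500 ppm comparison that mouse enters only through the estimate of spread. The 2500 ppm difference also passed without 20 ppm mouse 2 (-3.98, adjusted p = 0.0343) and without 500 ppm mouse 3 (-3.57, 0.0489). Of the 15 fits with 1 mouse left out, only 3 passed at 2500 ppm and 1 at 5000 ppm. The largest adjusted p of limma in them were 0.303 and 0.39.

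A_51_P327642 differed from 20 ppm by -2.90 ± 0.39 at 2500 ppm (adjusted p = 0.0677). At 5000 ppm it fell by 2.57 ± 0.39 on the log2 scale, a 5.94-fold lower level, and passed limma's test (adjusted p = 0.0447). It was 1 of 4 probes called lower, 0.00927% of all probes, beside 0.0348% called higher and 0.044% in either direction. Leaving out 1 mouse ended that call in 11 of 15 fits, with adjusted p from 0.0701 to 0.258. With only the 2 diets compared in the fit, it was also lost (adjusted p = 0.254). The call held without control mouse 1, 20 ppm mouse 2, 500 ppm mouse 3 or 5000 ppm mouse 3. At 2500 ppm the call was made without 20 ppm mouse 2 (adjusted p = 0.0325), 500 ppm mouse 3 (0.0479) or 5000 ppm mouse 3 (0.0268).

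A_55_P1997424 differed from 20 ppm by -1.70 ± 0.53 at 2500 ppm (limma, adjusted p = 0.49) and by -1.36 ± 0.53 at 5000 ppm (0.866). Between 5000 and 2500 ppm the 3 probes differed by 0.80 ± 0.46, 0.33 ± 0.39 and 0.34 ± 0.53. None of these was called (adjusted p = 1 for each), in a comparison in which limma called 0% of all probes (1942 at an unadjusted p under 0.05). All mice of that comparison lay on slide 2. Control and 20 ppm mice all lay on slide 1. In 2500 and 5000 ppm against them slide and diet therefore changed together, and within those comparisons cannot be told apart. Only the 500 ppm mice lay on both slides.

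**Figure D2:**
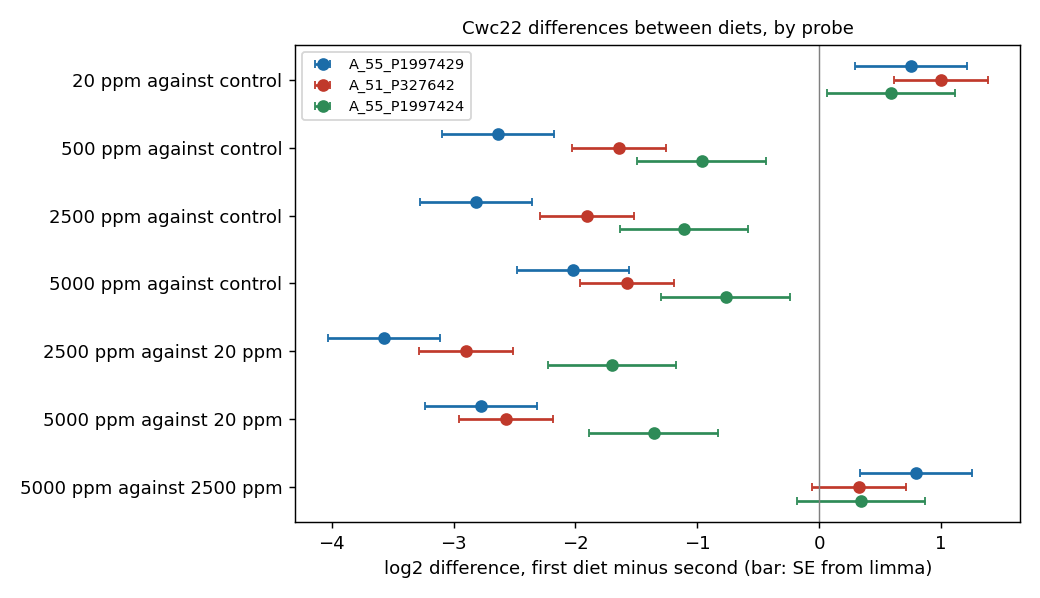
Log2 difference of each Cwc22 probe between pairs of diets (horizontal axis, first diet minus second), with the standard error from limma as the bar. All 3 probes sit below 0 in the comparisons of 500, 2500 and 5000 ppm with control and of 2500 and 5000 ppm with 20 ppm, and above 0 for 20 ppm against control and 5000 ppm against 2500 ppm.

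The SD over all 15 arrays was 1.59 for A_55_P1997429, 1.25 for A_51_P327642 and 0.90 for A_55_P1997424, against a median of 0.34 for all 43154 probes. Of these, 107 probes varied more than the first. The 15 arrays include the mice that chose the gene, so a high SD and rank follow in part from that choice. The SDs over all arrays and the rank are therefore a description only. The SDs pooled within diets were 0.61, 0.51 and 0.71, against a median of 0.33 for all probes. At 2500 ppm alone the SDs were 0.16, 0.08 and 0.18 in the same order. The median SD of all probes within that diet alone is not given, so these are not compared with the pooled median.

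How closely the probes moved together within the high pair and the low trio of diets depended on the pair of probes. These sets follow the split of Cwc22's own levels and hold the mice that chose the gene. Diet means were not taken out, so each r and permutation p mixes differences between diets with those between mice. The permutations moved mice across diets, so the p are a description and do not test a relation between mice. Among the 6 control and 20 ppm mice, A_51_P327642 and A_55_P1997429 had Pearson's r = 0.955 (exact permutation p = 0.00556, adjusted 0.0167 over 6 relations, Spearman's rho 0.829, exact p = 0.0583). Without the 2 mice farthest from the median r was 0.804. Among the 9 mice of the higher diets the same pair had r = 0.819 (exact permutation p = 0.000981, adjusted 0.00589, rho 0.867), and 0.601 without the 2 farthest mice. A_55_P1997424 was less tightly tied to A_55_P1997429, with r = 0.92 in the 6 mice (exact permutation p = 0.0125, adjusted 0.025, rho 0.943) and 0.539 in the 9 (exact permutation p = 0.15, adjusted 0.15, rho 0.617). Without the 2 farthest mice these were 0.74 and 0.262. A_51_P327642 and A_55_P1997424 had r = 0.795 in the 6 mice (exact permutation p = 0.0639, adjusted 0.0767, rho 0.657) and 0.825 in the 9 (exact permutation p = 0.0168, adjusted 0.0252, rho 0.617). The exact permutation p of Spearman's rho for that pair was 0.175 in the 6 mice and 0.0857 in the 9. That relation rests on the 2 farthest mice, without which r was 0.149 and 0.2.

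No other named gene had a Pearson's r over 0.9 with A_55_P1997429 across the 15 arrays. Genes known only by a model name (Gm with a number, or Rik) do not count as named here. They were left out of this search and of the unnamed probes below. The nearest were H2-Eb2, a class II histocompatibility chain, with r = 0.892, Dgkh, a diacylglycerol kinase, with 0.884, Evl, an actin regulator, with 0.880, the kinase Map4k4 with 0.872 and Adal, an adenosine deaminase-like enzyme, with 0.857. H2-Eb2 ran from -3.06 to -3.48 on the control and 20 ppm diets and from -3.55 to -4.24 on the others, a far smaller step than that of Cwc22. The most opposite were the noncoding RNA Lncpint at r = -0.912, C2cd3, a centriole protein, at -0.902 and Agbl2, a carboxypeptidase that acts on tubulin, at -0.895. Agbl2 stood between -3.82 and -2.97 in the 6 mice and between -2.58 and -1.69 in the other 9. These r describe 15 arrays that share the split by diet, and carry no p.

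With each diet's mean taken out, the nearest named probes were one of Hba-a1, an alpha globin of red cells (r = 0.930), Snx21, a sorting nexin (0.928), and Tcea1, an elongation factor of RNA polymerase II (0.925). The other Hba-a1 probe, A_51_P169730, had r = -0.18 on the same measure, so the probes of that gene disagreed. Alas2, the haem synthesis enzyme of red cell precursors, had 0.158.

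A group of probes for which the files and the RefSeq table gave no gene name followed A_55_P1997429 over the 15 arrays more closely than any other named gene did. They were singled out after their values were seen. There were 11 such probes over r = 0.9, under 9 identifiers, with r from 0.904 to 0.989. With diet means taken out r was 0.674 to 0.933.

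Choosing probes by r with a probe that splits the diets fixes that they split them too, so their values are given as a description. Their levels were 2.4- to 17-fold higher on control than at 500 ppm and 2.77- to 28.4-fold higher at 20 ppm than at 2500 ppm, as measured on these arrays. One of them, A_55_P1997434, was above background on 7 arrays only, none of them at 500 or 2500 ppm, and passed the filter through the diets where it was high. Its level was at least 2.11-fold higher on control than at 500 ppm and at least 2.71-fold higher at 20 ppm than at 2500 ppm, taken against the lowest signal well above background.

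The closest of them, A_52_P465669, read 0.51, 0.30 and -0.59 on control, 1.94, -0.43 and 0.93 at 20 ppm and -4.20, -4.75 and -3.08 at 500 ppm. It read -3.71, -4.37 and -3.96 at 2500 ppm and -3.87, -3.74 and -1.13 at 5000 ppm, where mouse 3 again stood above its group. Because these probes were chosen for their likeness to Cwc22 on these arrays, no test of their differences between diets is given.

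**Figure D3:**
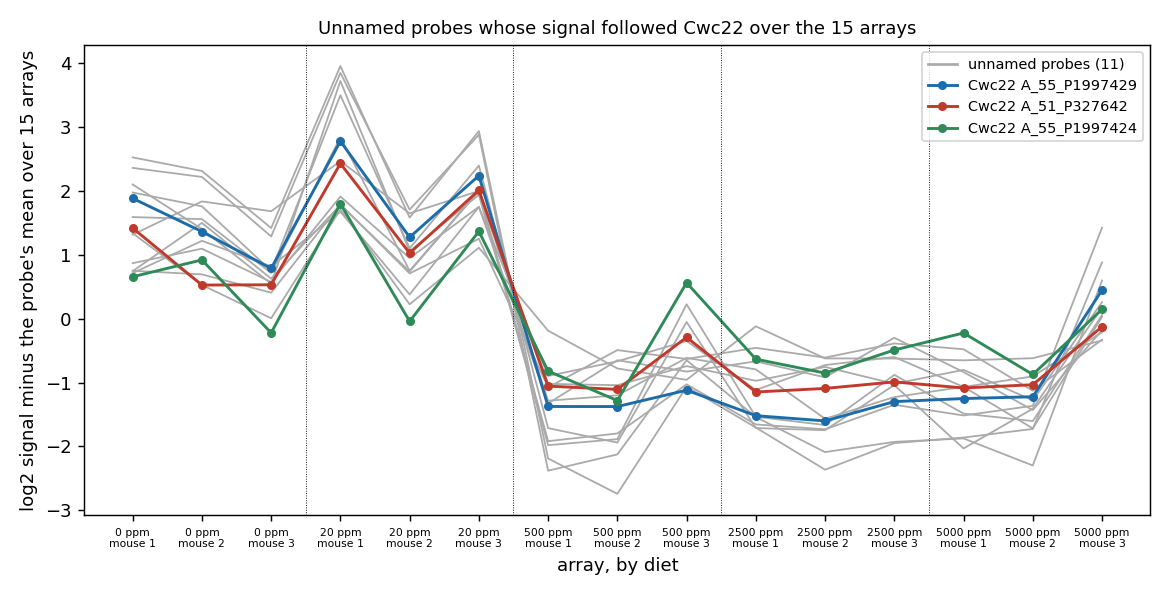
Log2 signal of 11 unnamed probes (grey) and the 3 Cwc22 probes (colours), each minus its own mean over 15 arrays, with the arrays ordered by diet along the horizontal axis and dotted lines between diets. The grey lines are high in the 6 control and 20 ppm mice and drop at 500 ppm together with Cwc22, and most of them rise again in 5000 ppm mouse 3.

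Among the 5 annotated genes on either side of Cwc22 on chromosome 2, only Zfp385b, a zinc finger gene, had probes that passed the filter on dim signals. Its 2 probes had r = -0.452 and -0.168 with A_55_P1997429, and differed from control by 0.24 and -0.15 at 2500 ppm (limma, adjusted p = 0.926 and 0.959). Gm13944, 4930440I19Rik and Gm14461 had 1 probe each, too dim to keep, and the other 6 had none matched to them. Farther out and chosen after the values were seen, the 4 probes of Ube2e3, a ubiquitin conjugating enzyme, had r from -0.757 to 0.61, and Sestd1 had 0.0609.

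Over 92 genes in 4 lists (exon junction complex and its recruitment, Prp19 complex and related factors, spliceosome core and remodelling factors, and other MIF4G domain genes), all 92 were measured and limma called 0 in any tested comparison, with 0% of all probes called at 2500 ppm and 0.0324% at 5000 ppm. With slide as a fixed block, 3 genes of the lists were called over the 2500 and 5000 ppm comparisons with control, in a setting that called 6396 and 6200 of all 43154 probes. The median log2 difference from control of the 92 was 0.04, 0.08, 0.05 and 0.13 at 20, 500, 2500 and 5000 ppm, beside -0.02, 0.11, 0.03 and 0.05 for all probes.

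Eif4a3, the helicase that CWC22 delivers, stood against control at 0.30, -0.63, -1.001 and -0.48 at 20, 500, 2500 and 5000 ppm, each ± 0.65, on 1 probe. These values have the signs of the Cwc22 differences, and limma called none of them (adjusted p = 1, 0.944, 0.796 and 0.979). The 2500 ppm value was the lowest of the lists. Rbmx2, a spliceosome factor chosen here after its values were seen, had the same signs, with 0.21, -0.13, -0.89 and -0.49, each ± 0.37, and was not called (adjusted p = 1, 0.965, 0.58 and 0.979). Magoh and Rbm8a, which bind each other in the exon junction core, differed from control at 2500 ppm by -0.20 ± 0.24 and -0.11 ± 0.21. Casc3, the peripheral core protein, stood at 0.11 ± 0.17. Cwc27, a spliceosomal cyclophilin that pairs with CWC22, stood at -0.06 ± 0.21, and Nom1, a nucleolar MIF4G protein, at -0.35 ± 0.20, none of them called.

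At 5000 ppm Magoh, Rbm8a and Casc3 stood at 0.17 ± 0.24, 0.01 ± 0.21 and 0.12 ± 0.17, and Cwc27 and Nom1 at -0.23 ± 0.21 and -0.21 ± 0.20. By list, at 2500 ppm 10 of 20 exon junction genes, 16 of 30 Prp19 related genes and 22 of 34 core spliceosome genes had positive values. The medians were -0.0027, 0.01 and 0.11. No gene of the lists was lower than Eif4a3 at that dose, against -2.82 for the brightest Cwc22 probe.

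**Figure D4:**
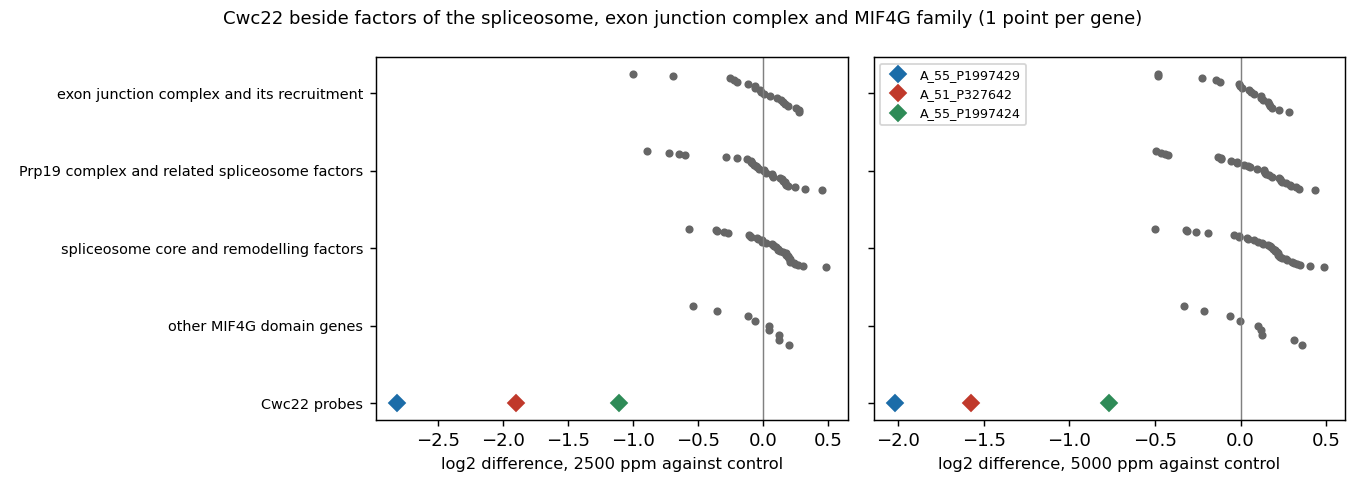
Log2 difference from control (horizontal axis) at 2500 ppm (left) and 5000 ppm (right), 1 grey point for each gene of 4 lists of spliceosome, exon junction and MIF4G genes, and diamonds for the 3 Cwc22 probes. The listed genes lie near 0, the lowest being Eif4a3 at -1.001 on the left, while Cwc22 reaches -2.82 on the left and -2.02 on the right.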

How the data were processed

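Lung RNA of 15 mice was measured on 1-colour Agilent arrays. Per the file headers, the authors' scanner files were made with Agilent Feature Extraction 10.7.3.1 and hold background-subtracted processed signal intensity. The labels state 100 ng of RNA per labelling. The authors also deposited a log2 table; its columns matched the log2 intensity of the same arrays (Pearson's r = 1) up to a shift per array, and it was not used for the results. Signal depth cannot be counted on arrays; their number limits the precision.

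Here log2 processed signal minus each array's 75th percentile over non-control probes was used, with spots of a probe averaged. A probe was kept if 50% or more of its spots were well above background on all 3 arrays of a diet (43154 of 56605). limma 3.58.1 (R 4.3.3) fitted 1 mean per diet over all 15 arrays with 10 residual degrees of freedom, and p-values were adjusted by Benjamini-Hochberg over all kept probes. The fit was tested on simulated data. Names came from RefSeq identifiers (34670 probes named, 21935 not); no coordinates are given because the builds differ. Probes named in the text are all Cwc22 probes, the 5 genes on each side, listed genes past the threshold, Eif4a3, Magoh, Rbm8a, Casc3, Cwc27 and Nom1, and the named genes with the 5 highest and 3 lowest r, and the 3 highest r of deviations from diet means. Genes known only by a model name (Gm with a number, or Rik) were left out of the choice by r. A listed gene with several probes is given by its brightest. The members and lists were chosen with earlier results of these data known.

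Same-numbered mice of control and 20 ppm had correlated deviations (r = 0.682, 0.344 and 0.259), but so did 20 ppm mouse 2 with control mouse 3 (0.453) and 20 ppm mouse 3 with control mouse 2 (0.419); in the other comparisons not all pairs exceeded 0.1, and the labels name no pairing.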

Additional observations from a re-analysis of the deposited data

How the results depend on the processing

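The log2 differences of A_55_P1997429 kept their direction under every alternative run. Its difference at 2500 ppm against control passed limma's test with slide as a fixed block (-3.07, adjusted p = 0.0282) and with array weights (-2.72, 0.0116), settings that called 6396 and 1003 of all 43154 probes there, against 0. At 2500 ppm against 20 ppm it passed with normexp background correction (-3.35, 0.015), the array median as scale (-3.59, 0.00387), a filter on all 15 arrays (-3.57, 0.0388), the fixed slide block (-3.83, 0.0167), trend and robust moderation (-3.57, 0.0186), array weights (-3.13, 0.00255) and all 4 arrays apart on the first 2 components left out (-3.32, 0.037; an alternative chosen after seeing the data). In that comparison the fixed slide block called 4902 probes, array weights 2405, the fit without the 4 arrays 646 and the other settings 4 to 13, against 0. At 5000 ppm against 20 ppm it passed with normexp (-2.57, 0.0287), the array median (-2.77, 0.0233), the fixed slide block (-3.03, 0.0385), trend and robust moderation (-2.77, 0.0413) and array weights (-2.36, 0.0124), with 4707 probes called under the fixed block, 766 under weights and 19 to 29 under the others, against 19. The cause was not tested. With slide as a random block (correlation 0.282) the adjusted p were 0.833, 0.608 and 0.678. The fixed slide block rests on 500 ppm mouse 3 and called 3 genes of the pathway lists instead of 0, beside 6396 and 6200 of all probes at 2500 and 5000 ppm against control. A_55_P1997424 at 20 ppm against control turned to -0.075 with array weights.

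With the replicate number as a block the adjusted p of A_55_P1997429 against control were 1, 0.158 and 0.409 for the 20, 2500 and 5000 ppm diets, and 0.0613 and 0.119 for 2500 and 5000 ppm against 20 ppm. The block ended the call of A_51_P327642 at 5000 ppm against 20 ppm (0.0634), as did no filter (0.0809), the random slide block (0.256), a fit of only the diets compared (0.254) and leaving out the arrays apart on component 2 (0.113) or on both (0.0583). The same probe gained calls against control with the fixed slide block at 2500 ppm (0.0175) and 5000 ppm (0.031) and with array weights at 2500 ppm (0.0224). At 2500 ppm against 20 ppm it gained them under the same 7 settings as A_55_P1997429 (adjusted p from 0.00211 to 0.0395) and in 3 of 15 fits with 1 mouse left out. Leaving out each mouse in turn gave ranges for A_55_P1997429 against control of 0.41 to 1.17 (20 ppm), -2.91 to -2.37 (500 ppm), -3.10 to -2.55 (2500 ppm) and -2.58 to -1.73 (5000 ppm). They were -3.98 to -3.23 and -3.33 to -2.43 for 2500 and 5000 ppm against 20 ppm, and 0.24 to 1.09 for 5000 against 2500 ppm.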
